A study of Homo sapiens with 8 samples.

Results

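The levels of 10 long noncoding RNA genes with known links to cancer were followed on arrays of a squamous carcinoma line in which KHSRP had been silenced: MALAT1, NEAT1, PVT1, TUG1, H19, DANCR, MIR22HG, MIR31HG, MIR17HG and EPB41L4A-AS1. Their probes were those whose RefSeq accession belongs to one of these 10 symbols in the RefSeq gene table of assembly GRCh38.p14, and 23 of the 42405 probes on the array met this rule. PVT1 had 8 of them, MALAT1 5, NEAT1 3 and H19 2, and DANCR, MIR22HG, MIR31HG, MIR17HG and EPB41L4A-AS1 had 1 each. No probe carried an accession of TUG1, so 9 of the 10 genes were measured here, among 20249 genes named on the array. The cells were KYSE850, an established line from a human esophageal squamous cell carcinoma, treated either with a control siRNA (4 arrays) or with an siRNA directed at KHSRP (4 arrays). No genetic change was made in either group, and all 8 samples share the same line. Which siRNA sequence against KHSRP each sample received is not in the labels, nor is whether the samples of a group were separate cultures, so that p-values measure the spread between these samples, which may be technical.

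Long noncoding RNAs are transcripts that are not translated, and many act in the nucleus as scaffolds for proteins or as precursors from which small RNAs are cut. MALAT1 is an abundant RNA of nuclear speckles, and NEAT1 is the RNA on which paraspeckles, another class of nuclear body, are built. KHSRP is an RNA-binding protein with KH domains that promotes the decay of mRNAs with AU-rich elements and the maturation of a set of miRNA precursors, in which it contacts G-rich stretches of the terminal loop.

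Several of the genes are host transcripts of miRNAs, and the sequences below show which small RNAs lie within the transcripts measured here. The arrays read the host transcripts and not the mature miRNAs. RefSeq (GRCh38.p14) gave the sequences, written 5′ to 3′, with the seed (bases 2 to 8) in capitals. MIR31HG holds miR-31, MIR22HG holds miR-22, H19 holds miR-675, DANCR holds miR-4449 (not shown), and the others come from the miRNA cluster in MIR17HG.
hsa-miR-31-5p: aGGCAAGAugcuggcauagcu
hsa-miR-22-3p: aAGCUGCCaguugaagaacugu
hsa-miR-675-5p: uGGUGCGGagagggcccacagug
hsa-miR-17-5p: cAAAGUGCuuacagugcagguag
hsa-miR-20a-5p: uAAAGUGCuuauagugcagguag
hsa-miR-18a-5p: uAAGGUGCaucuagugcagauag
hsa-miR-19a-3p: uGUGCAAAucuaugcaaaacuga
hsa-miR-19b-3p: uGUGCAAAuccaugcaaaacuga
hsa-miR-92a-3p: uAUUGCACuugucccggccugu

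Within the cluster, miR-17-5p and miR-20a-5p share the seed AAAGUGC, and miR-19a-3p and miR-19b-3p share GUGCAAA. No seed was shared between different host genes among the 18 mature miRNAs listed for these hosts. The hairpin of miR-31, on the minus strand at chr9:21512115-21512185, is shown because its host had the lowest log2 fold change of the 23 probes under the reported setting. The letters GGG are in capitals.
MIR31 hairpin: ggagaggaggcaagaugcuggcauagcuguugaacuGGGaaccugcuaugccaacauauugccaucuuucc

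GGG was searched on the transcribed strand only, overlapping matches included, over the whole hairpin and not the terminal loop alone. It was found in 4 of the 9 hairpins taken from MIR31HG, H19, MIR17HG and DANCR and in 1157 of all 1562 human hairpins of the table (74.1%), so that the letters alone do not set these hairpins apart. The hairpin of miR-22 was not among the 9.

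Levels are log2 signals relative to the 75th percentile of the same array, so that 0 stands for a probe exactly at it. They can be compared for 1 probe across arrays but not between probes. Between 19145 and 20938 probes per array (45.1% to 49.4%) passed the scanner's test for lying well above background. All 5 markers of squamous epithelium (KRT5, KRT14, KRT6A, TP63 and DSG3) were above background on all 8 arrays. So were 1 of 3 fibroblast markers (COL1A1), 1 of 3 leukocyte markers (CD68) and 0 of 3 endothelial markers (PECAM1, VWF and CDH5). COL1A2, PDGFRB and the 3 endothelial markers were above background on 0 arrays, PTPRC on 4 and CD3E on 5. None of these was tested at the probe used. No marker that was tested was called. Arrays also differed within groups. Across the tested probes, deviations from the group mean on control siRNA replicate 4 correlated at 0.84 with those on KHSRP siRNA replicate 3, and those on control siRNA replicate 3 at 0.83 with KHSRP siRNA replicate 4, whereas replicates 3 of the 2 groups correlated at −0.67. Probes are not independent, and these correlations are descriptions. In the authors' series matrix, the columns of KHSRP siRNA replicates 3 and 4 match each other's scanner values, so that a fit with the replicate as a block depends on which numbering is used.

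The targeted gene was examined first. At KHSRP probe A_23_P16157 the level was 6.03, 5.81, 6.39 and 6.08 with control siRNA and 2.52, 2.58, 2.88 and 2.85 with KHSRP siRNA. The groups did not overlap, and the log2 fold change was −3.37 (SE 0.16, limma adjusted p = 5.95e-05, n = 4 per group). An exact permutation test (two-sided) gave p = 0.0286, the smallest that 4 arrays against 4 allow. The dimmer probe A_24_P134235 of the same gene cleared the background on all 4 control arrays but on 0 of the 4 KHSRP siRNA arrays, and was at least 5.83-fold lower with KHSRP siRNA (limma adjusted p = 0.0147). For this bound, the dim reading on an array was replaced by the weakest reading that still cleared the background there, unless it was itself higher. The limma fit used the readings without this replacement. The dimmer probe entered the test only through the control arrays, where it was higher, so its p-value is not independent of that choice.

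The next question was which of the long noncoding RNAs changed when KHSRP was lowered. NEAT1 rose about 1.5-fold at 2 of its 3 probes, and PVT1 rose 1.70-fold at 1 of its 8 probes. No probe of the other 7 genes measured was called. In all, 3 of the 23 probes were called (13.0%), all higher, where 5.54% of the 18761 tested probes were called in either direction, 1.92% higher and 3.62% lower (limma, adjusted p under 0.05 after Benjamini-Hochberg adjustment over all tested probes). Because 2 of the 3 calls come from one gene, they are not independent. At an unadjusted p under 0.05, 5 probes passed, but the share of all tested probes at that threshold was not computed. With the replicate block numbered as in the series matrix 8 of the 23 were called, where 30.1% of all tested probes were. The median log2 fold change of the 23 probes was 0.11, with 14 of them above 0, against 0.01 for all tested probes. All 23 passed the filter on dim probes, and 21 were well above background on all 8 arrays. MIR31HG and H19 A_24_P52697 passed the filter only through the control arrays. Groups did not overlap at 4 of the 23 probes (17.4%), the MIR31HG probe among them, which is close to the 14.8% of all tested probes.

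**Figure D1:**
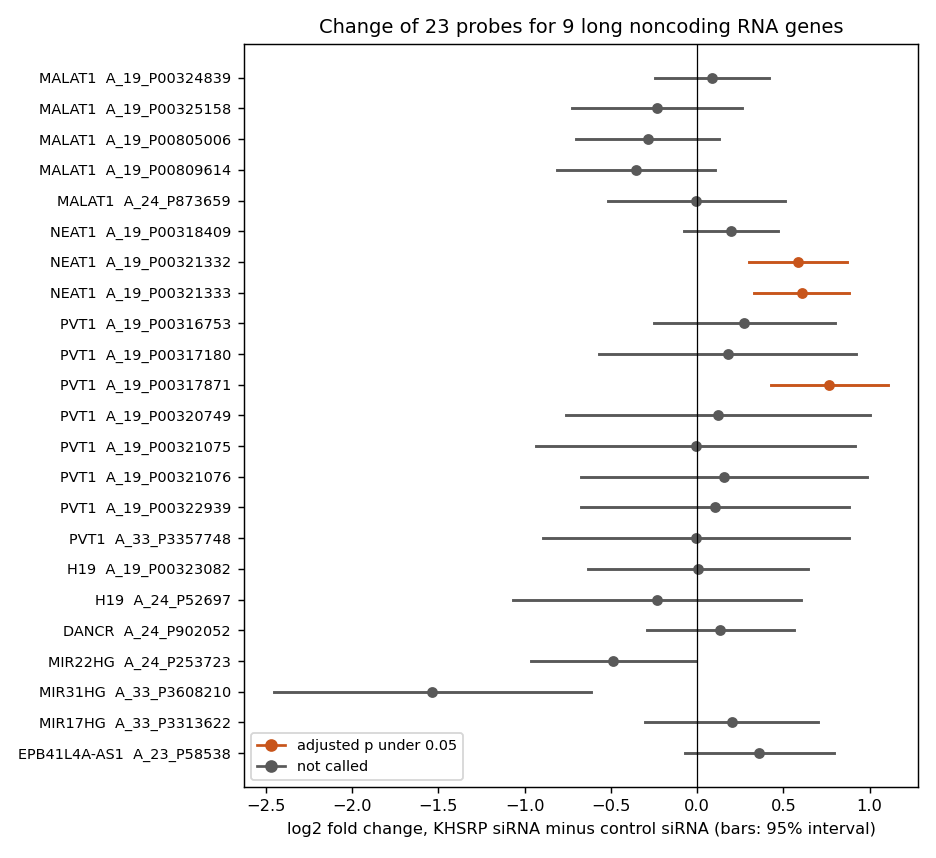
Log2 fold change (KHSRP siRNA minus control siRNA, horizontal axis) of the 23 probes, with bars for the 95% interval of the limma fit on 4 arrays per group. The 3 called probes, of NEAT1 and PVT1, lie above 0, and the MIR31HG probe has the lowest value, −1.53.

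NEAT1, on chromosome 11 near MALAT1, gives a short polyadenylated transcript and a long one, the latter being the scaffold of paraspeckles. All 3 probes were matched through one accession although RefSeq lists 2 transcripts, and the deposited files give no probe position, so which transcript each probe reads was not determined here. At A_19_P00321333 the level was 2.01, 1.86, 2.01 and 2.24 with control siRNA and 2.64, 2.59, 2.52 and 2.80 with KHSRP siRNA. At A_19_P00321332 it was 3.43, 3.22, 3.39 and 3.58 with control siRNA and 4.07, 3.98, 3.80 and 4.12 with KHSRP siRNA. At both probes every KHSRP siRNA array lay above every control array.

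The log2 fold change was 0.61 (SE 0.12, limma adjusted p = 0.0251) at A_19_P00321333, a 1.52-fold rise with a 95% interval of 1.26 to 1.84. It was 0.58 (SE 0.12, limma adjusted p = 0.0327) at A_19_P00321332, with an interval of the fold of 1.23 to 1.83. Both slides showed the rise, with differences of 0.67 and 0.54 at the first probe and 0.70 and 0.47 at the second. The call is close to the threshold: of the 8 fits that leave out 1 array, both probes were called only without control siRNA replicate 4 or without KHSRP siRNA replicate 3. Without control siRNA replicate 1, 2 or 3 or KHSRP siRNA replicate 1, 2 or 4, the limma adjusted p was 0.0626 to 0.0834 at A_19_P00321333 and 0.0771 to 0.0996 at A_19_P00321332, while over all 8 such fits the log2 fold change stayed between 0.55 and 0.67 at the first and between 0.52 and 0.65 at the second.

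The third NEAT1 probe was not called. At A_19_P00318409 the level was −0.58, −0.73, −0.59 and −0.42 with control siRNA and −0.20, −0.40, −0.51 and −0.42 with KHSRP siRNA, so that the groups overlapped. Its log2 fold change was 0.20 (SE 0.12, 95% interval −0.07 to 0.47, limma adjusted p = 0.43). The difference between this probe and the mean of the other 2 on the same array shifted by −0.40 between groups (exact permutation test, two-sided, p = 0.0286, the smallest possible, and 0.121 after adjustment over 17 such tests of probes of the same gene). This comparison was chosen after the values were seen, and it does not pass after adjustment. With 4 arrays against 4, a test could pass this adjustment only if many of the 17 reached the smallest possible p. Not passing therefore does not decide whether the probes differ.

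**Figure D2:**
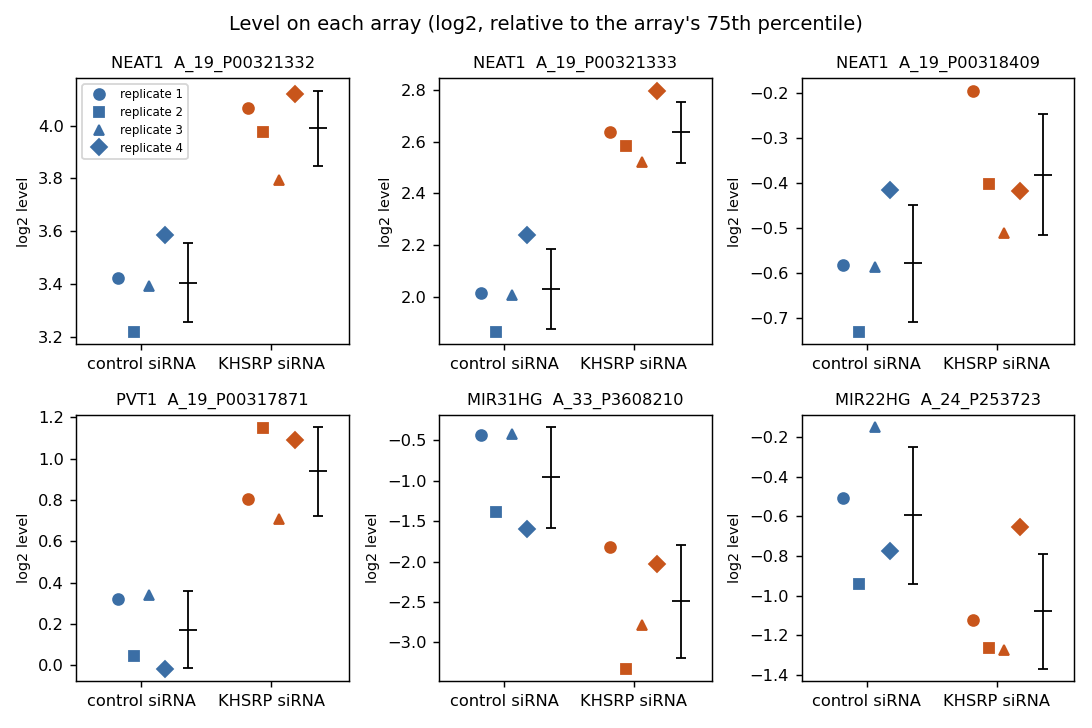
Level on each array (vertical axis, log2 relative to the array's 75th percentile, a separate scale per panel) for the 3 NEAT1 probes, the called PVT1 probe, MIR31HG and MIR22HG, with symbols for the replicates and, beside them, the mean and SD of 4 arrays. The groups separate at A_19_P00321332, A_19_P00321333, A_19_P00317871 and MIR31HG, and they overlap at A_19_P00318409 and MIR22HG.

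Proteins that assemble on NEAT1 were examined next, from a list of 14 paraspeckle protein genes, each represented by its probe with the highest mean level. All 14 were tested and none was called (limma), where 5.54% of all tested probes were. At an unadjusted p under 0.05, 7 passed, but the share of all tested probes at that threshold was not computed. There were 13 log2 fold changes below 0, 1 above 0, with a median of −0.34 and a range of −0.45 to 0.33. The median of all tested probes was 0.01. The groups did not overlap at 7 of the 14, where 14.8% of all tested probes did not overlap, and adjusted p-values ranged from 0.0733 to 0.705. Named after their values were seen, the core proteins NONO, SFPQ and PSPC1 had log2 fold changes of −0.26 (limma adjusted p = 0.258), −0.39 (0.20) and −0.45 (0.212). CPSF6, a subunit of the cleavage factor that acts at the NEAT1 polyadenylation site, had the lowest adjusted p of the list, 0.0733, with a log2 fold change of −0.37 (SE 0.10). The exception above 0 was HNRNPH3, at 0.33 (SE 0.11, limma adjusted p = 0.149). TARDBP and EWSR1 each had 3 tested probes, of which 1 other than the one used here was called. With the replicate block numbered as in the series matrix, 9 of the 14 were called, where that fit called 30.1% of all tested probes, and with the methods' t-test 2, where it called 5.76%.

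PVT1 lies beside the MYC oncogene on chromosome 8, is often gained together with it in tumours, and is spliced into many forms. RefSeq lists 51 transcripts, and all 8 probes were matched through a single accession. At A_19_P00317871 the level was 0.32, 0.04, 0.34 and −0.02 with control siRNA and 0.80, 1.15, 0.71 and 1.09 with KHSRP siRNA. Every KHSRP siRNA array lay above every control array, and the log2 fold change was 0.77 (SE 0.15, limma adjusted p = 0.0222), a 1.70-fold rise with a 95% interval of 1.34 to 2.15. Within slides the difference was 0.79 and 0.74.

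The call at A_19_P00317871 held when control siRNA replicate 3 or KHSRP siRNA replicate 1 or 3 was left out. It was lost without control siRNA replicate 1, 2 or 4 or KHSRP siRNA replicate 2 or 4, where the limma adjusted p was 0.0542 to 0.0753, and over the 8 fits the log2 fold change ranged from 0.70 to 0.84.

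The other 7 PVT1 probes gave log2 fold changes of −0.01 to 0.27 (limma adjusted p 0.606 to 0.996), with 95% intervals that reached from −0.93 to 0.9997 at the widest. Their spread within groups was large, with an SD of 0.28 to 0.62 for control siRNA and 0.42 to 0.78 for KHSRP siRNA, against 0.19 and 0.21 at A_19_P00317871. The 7 probes varied together. Control siRNA replicate 3 was the lowest control array at 6 of the 7 and control siRNA replicate 2 the highest at 5, while KHSRP siRNA replicate 4 was the lowest of its group at 6 and KHSRP siRNA replicate 2 the highest at 6. Deviations from the group mean were below 0 at 6 of the 7 probes on control siRNA replicates 1 and 3. On KHSRP siRNA replicates 1 and 4 they were below 0 at all 7. They were below 0 at 1 probe on control siRNA replicate 2. On control siRNA replicate 4 and KHSRP siRNA replicates 2 and 3 they were so at 0. This spread, present in both groups, is part of the SDs and of the intervals without a block. Arrays differed in this way beyond PVT1. Over all tested probes, deviations on control siRNA replicate 3 correlated at 0.83 with those on KHSRP siRNA replicate 4. UCA1, picked after its values were seen, was also lowest in its groups on these arrays. The pattern is therefore not particular to PVT1, and its source was not tested. The probe not lowest on control siRNA replicate 3 was A_19_P00316753, whose level was −0.72, −0.38, −0.34 and −0.03 with control siRNA and −0.52, 0.40, 0.10 and −0.35 with KHSRP siRNA. A_19_P00317180 also departed in part, being highest on control siRNA replicate 4 and KHSRP siRNA replicate 3. At A_33_P3357748, which follows the pattern, the level was 2.26, 2.90, 1.58 and 2.62 with control siRNA and 2.20, 2.95, 2.79 and 1.41 with KHSRP siRNA. At the called probe, by contrast, control siRNA replicate 3 was the highest control array and KHSRP siRNA replicate 4 the second highest of its group.

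The difference between A_19_P00317871 and the mean of the other 7 probes shifted by 0.65 between groups, which did not pass the test (exact permutation, two-sided, p = 0.229, 0.389 after adjustment over the 17 tests). Without a block, the 95% interval of each of the 7 probes included the log2 fold change seen at the called one. With the series matrix block their intervals were narrower, reaching from −0.25 to 0.62 at the widest, so that all 7 lay below 0.77, and none of the 7 passed the threshold (limma adjusted p 0.147 to 0.962).

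**Figure D3:**
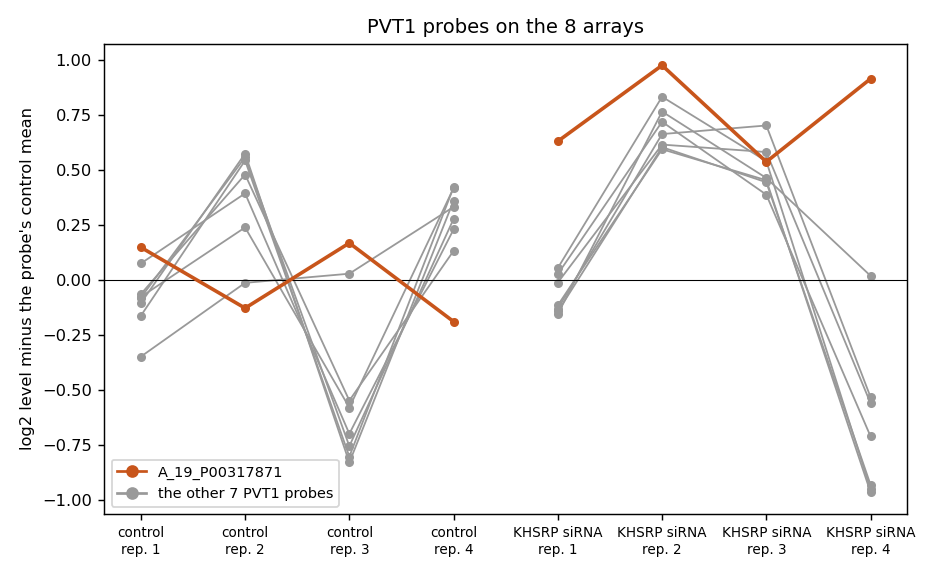
Level of the 8 PVT1 probes on the 8 arrays, each as the difference (log2, vertical axis) from its own mean over the 4 control arrays, with lines joining the values of 1 probe within a group. The 7 grey probes move together, and 6 of the 7 are lowest in their group on control siRNA replicate 3 and 6 on KHSRP siRNA replicate 4, whereas A_19_P00317871 (orange) is above its control values on all 4 KHSRP siRNA arrays.

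MYC, the neighbour of PVT1, had a level of 4.35 ± 0.21 (SD, n = 4) in controls against 4.90 ± 0.20 (SD, n = 4) after silencing. The groups did not overlap, but its log2 fold change of 0.56 (SE 0.15) missed the threshold (limma adjusted p = 0.0728, and 0.00396 with the series matrix block). MYC was named after its value was seen. Protein-coding genes nearest to the 10 long noncoding RNAs on either side, leaving out any that overlap them, were 18 in all. Of these, 11 were tested. At the probe with the highest mean level 1 of the 11 was called, where 5.54% of all tested probes were. ERVMER34-1, beside DANCR, was not called at that probe, but 2 of its 4 tested probes were. The called gene was WDR81, beside MIR22HG on chromosome 17, which encodes a protein of endosomal and autophagy pathways. It rose from 2.26 ± 0.04 (SD, n = 4) to 2.96 ± 0.12 (SD, n = 4), a log2 fold change of 0.70 (SE 0.10, limma adjusted p = 0.00807), and was called in all 8 fits that leave out 1 array. The study lists WDR81 among predicted miRNA targets that it picked from these arrays, so its direction is not independent evidence. FRMD8, a neighbour of NEAT1, had a log2 fold change of 0.07 (95% interval −0.29 to 0.44) and was also named after its value was seen.

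MALAT1 did not pass the test at any of its 5 probes. Its 3′ end is not polyadenylated but is formed by RNase P and capped by a triple helix, and RefSeq lists 3 transcripts. The log2 fold changes were −0.36 (A_19_P00809614), −0.29 (A_19_P00805006), −0.23 (A_19_P00325158), −0.0041 (A_24_P873659) and 0.09 (A_19_P00324839), with limma adjusted p-values of 0.392 to 0.996. Over the 5 probes, the 95% intervals reached from −0.81 to 0.51, and changes within its own interval were not excluded at any of them. At A_19_P00809614 the level was 0.59, 0.35, 0.55 and 1.20 with control siRNA and 0.26, 0.06, 0.57 and 0.37 with KHSRP siRNA. At A_24_P873659 it was 0.54, 0.85, 0.95 and 1.64 with control siRNA and 0.84, 0.86, 1.15 and 1.12 with KHSRP siRNA. At both probes control siRNA replicate 4 was the highest of all 8 arrays, and the groups overlapped. With the series matrix block, A_19_P00805006 (limma adjusted p = 0.0309) and A_19_P00809614 (0.037) were called lower and the other 3 were not.

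Genes that form or degrade such nuclear transcripts were taken from a list of 17, of which 15 were tested. At the probe with the highest mean level 1 of the 15 was called, where 5.54% of all tested probes were. This was ELAC2, called at 1 of its 2 tested probes, which encodes the long form of RNase Z, an enzyme that trims the 3′ ends of tRNAs and of the small RNA released from MALAT1. It fell from a level of 5.59 ± 0.09 (SD, n = 4) to 5.01 ± 0.22 (SD, n = 4), and the log2 fold change was −0.58 (SE 0.13, limma adjusted p = 0.0418). The call held in 1 of the 8 fits that leave out 1 array. The list as a whole had 8 log2 fold changes above 0 and 7 below 0, with a median of 0.01.

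The log2 fold changes of the miRNA hosts lay on both sides of 0. MIR31HG, from whose transcript miR-31 can be cut, had the log2 fold change farthest from 0 of the 23 probes under the reported setting but missed the threshold. At A_33_P3608210 the level was −0.43, −1.38, −0.42 and −1.60 with control siRNA and −1.81, −3.33, −2.79 and −2.03 with KHSRP siRNA. All 4 KHSRP siRNA arrays lay below all 4 control arrays, and the log2 fold change was −1.53 (SE 0.40, limma adjusted p = 0.0664), a fold of 0.345 with a 95% interval of 0.183 to 0.652. The difference was −1.66 on slide 1 and −1.40 on slide 2.

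The MIR31HG probe was dim, being well above background on all 4 control arrays and on 2 of the 4 KHSRP siRNA arrays. It thus passed the filter on dim probes only through the control group, where it was higher. The separation of its groups is therefore not independent of the filter, and its fold rests partly on readings near background. Normexp background correction, with its offset of 50, reduced its log2 fold change to −0.41. In the same setting it was 0.55 at PVT1 A_19_P00317871 and 0.51 at NEAT1 A_19_P00321333. An added offset shrinks the change of a dim probe more than that of a bright one, so these values do not rank the changes. The MIR31HG probe was called with array weights (limma adjusted p = 0.0461) and with the series matrix block (0.00214).

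MIR22HG, host of miR-22, had a level of −0.51, −0.94, −0.15 and −0.78 with control siRNA and −1.12, −1.26, −1.27 and −0.66 with KHSRP siRNA. KHSRP siRNA replicate 4 lay within the control range and the other 3 below it. The log2 fold change was −0.49 (SE 0.21, 95% interval −0.96 to −0.01, limma adjusted p = 0.246), and the probe was called only with the series matrix block (0.0079). MIR17HG, host of the miRNA cluster printed above, had a log2 fold change of 0.20 (SE 0.22, 95% interval −0.30 to 0.70, limma adjusted p = 0.714). Its level was −0.78, −0.87, 0.04 and −0.62 with control siRNA and −0.65, −0.35, −0.37 and −0.06 with KHSRP siRNA, and the groups overlapped.

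H19, an imprinted transcript that hosts miR-675, was dim. The log2 fold change was 0.01 (95% interval −0.63 to 0.65) at A_19_P00323082 and −0.23 (−1.07 to 0.60) at A_24_P52697, with limma adjusted p-values of 0.994 and 0.825. The levels on the 8 arrays lay between −2.72 and −1.43 at the first probe and between −3.50 and −1.88 at the second, which was well above background on 7 of the 8 arrays. The groups overlapped at both.

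DANCR and EPB41L4A-AS1 are spliced RNAs whose introns hold small nucleolar RNAs, and DANCR is known for holding back differentiation. The DANCR level was 2.62, 3.07, 2.68 and 2.62 with control siRNA and 2.56, 3.28, 2.99 and 2.69 with KHSRP siRNA, and the log2 fold change was 0.13 (SE 0.19, 95% interval −0.29 to 0.56, limma adjusted p = 0.791). Replicate 2 was the highest array of each group. EPB41L4A-AS1 had a level of 4.26, 4.56, 4.18 and 4.63 with control siRNA and 4.46, 5.15, 4.93 and 4.53 with KHSRP siRNA. The groups overlapped, and the log2 fold change was 0.36 (SE 0.19, 95% interval −0.07 to 0.79, limma adjusted p = 0.348, and 0.0269 with the series matrix block).

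**Figure D4:**
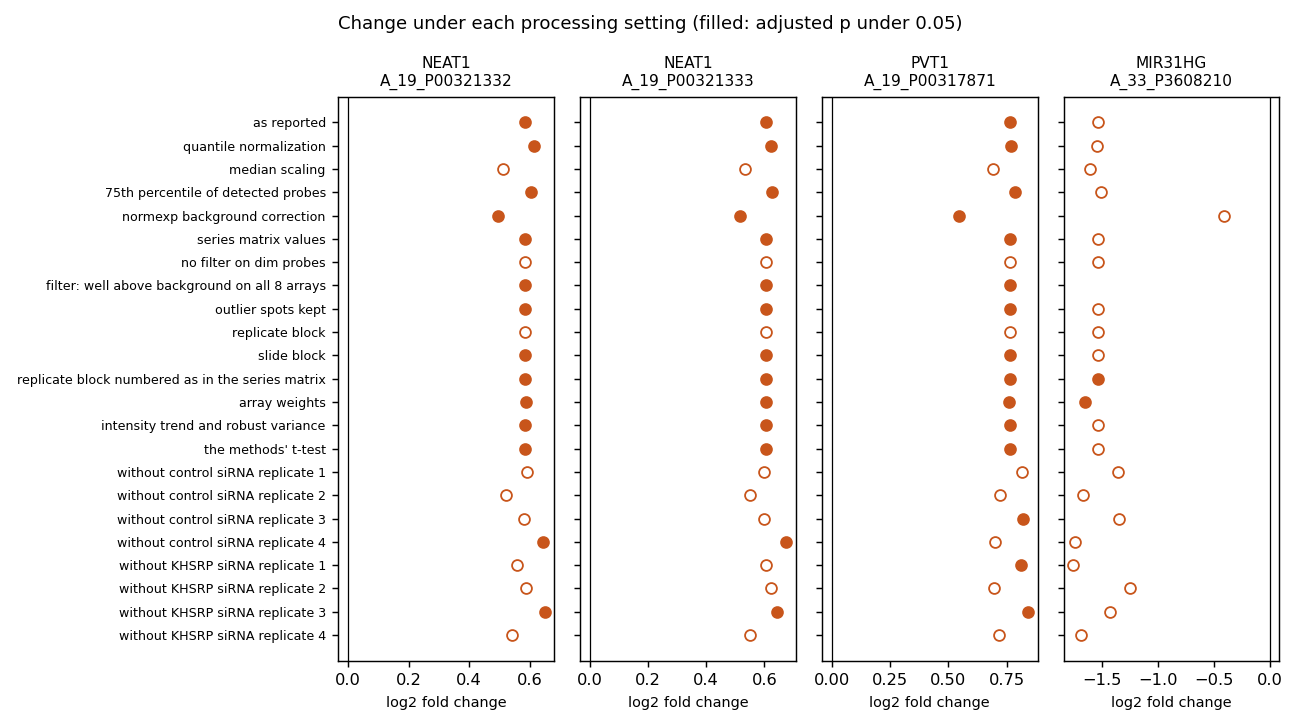
Log2 fold change (horizontal axis, a separate scale per panel) of 4 probes under the reported setting and each alternative (rows), filled where the adjusted p was under 0.05. The direction is the same in every row for the 4 probes, and the NEAT1 and PVT1 calls are lost with median scaling, without a filter on dim probes, with the replicate block of the labels and without some single arrays.

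Other long noncoding RNAs known from cancer served for comparison. Of 30 listed, 19 had a probe and 11 were tested. None was called at the probe with the highest mean level by limma or by the methods' t-test. Over all tested probes these called 5.54% and 5.76%. At an unadjusted limma p under 0.05, 1 passed, again without a share of all tested probes computed. The 11 log2 fold changes ranged from −0.50 to 0.24, with 8 below 0 and a median of −0.13. CRNDE, named after its value was seen, had non-overlapping groups and a log2 fold change of −0.49 (SE 0.14, limma adjusted p = 0.0897), and 2 of its 4 tested probes were called.

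Probes whose levels followed the called ones most closely over the 8 arrays were sought among 14445 probes, by the root mean square difference of log2 levels centred on the control mean. For NEAT1 at A_19_P00321332 these were probes of BRD3 (0.0855) and ATP6V1D (0.0933), with log2 fold changes of 0.54 and 0.58. For PVT1 at A_19_P00317871 they were RNF135 (0.0646) and CREM (0.0963, probe A_24_P360763), with log2 fold changes of 0.82 and 0.71. Because the difference between the groups is part of this measure, similar log2 fold changes follow from the way the probes were chosen. These are descriptions of 8 arrays, without a test.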

How the data were processed

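RNA from 8 samples was labelled with Cy3 and hybridised to one-colour Agilent arrays, 4 per siRNA group as labelled. The authors' scanner files hold linear intensity per spot, and the processed signal used here is background-subtracted. The file header names Feature Extraction 11.5.1.1, the labels 12.6. The labels and the methods also name different RNA extraction reagents. The deposited series matrix holds log2 values (GeneSpring, per the methods) and served as an alternative.

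Control spots and outlier spots were left out. Signals were log2-transformed, averaged per probe and centred on the 75th percentile of the array. Probes with at least 0.5 of their spots well above background on all 4 arrays of a group were tested (18761). The siRNA groups were set against each other with lmFit and eBayes of limma 3.58.1 in R 4.3.3. This was a two-sided fit without a block. P-values were adjusted by Benjamini-Hochberg over the tested probes, and the threshold was 0.05. Tables and exact permutation tests used Python 3.11.15 and SciPy 1.17.1. Intervals are at 95%. The number of arrays limits the precision.

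The members and gene lists were chosen with earlier results of these data known. The rule for naming took the probes of the members, KHSRP, up to 4 called genes per list and the 2 genes most alike to each gene with a called probe. Genes named outside it are given as chosen after their values were seen, and ERVMER34-1, TARDBP and EWSR1 are among them. Alternatives covered scaling (quantile, median, detected probes), normexp with an offset of 50 on the spot brightness, the series matrix values, the filter, outlier spots, blocks for slide or replicate, weighting of arrays, a robust variance with an intensity trend, the t-test of the methods, the probe standing for a gene, and each array left out. Same-numbered samples in the labels correlated at 0.52, 0.43, −0.67 and −0.64 in their deviations from the group means, so those numbers were not taken to pair them. With the series matrix numbering the values were 0.52, 0.43, 0.84 and 0.83.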

Additional observations from a re-analysis of the deposited data

Results flagged for a closer look

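Of 48 groups of 4 arrays examined (2 per probe, KHSRP included), 1 held an array far from the other 3. DANCR at A_24_P902052 read 3.07 on control siRNA replicate 2, where the next highest control array read 2.68, so that the gap was 0.864 of the group's range, above Dixon's critical value for 4 values. Chance alone sets off this criterion in about 1 in 20 groups.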

How the results depend on the processing

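The log2 fold change of KHSRP at A_23_P16157 kept its direction and its call in all 22 alternatives. At the dimmer A_24_P134235 it kept its direction in the 21 that gave a value and its call in 18 of them. Those of NEAT1 (A_19_P00321332, A_19_P00321333), PVT1 (A_19_P00317871), MIR31HG and MIR22HG kept their direction in every alternative that gave a value. The number of calls moved more. Over all tested probes 1039 were called (5.54%), against 570 with median scaling, 319 without a filter and 156 with the replicate block of the labels. The block that uses the series matrix numbering called 5644 (30.1%), and the list counts under it below stand beside that share. Of the 23 member probes 3 were called, against 0 (0 genes) with median scaling, without a filter and with the block of the labels, and 8 (6 genes) with the series matrix block. With the brightest probe standing for each gene, 1 gene was called. The decay list had 0 calls in those first 3 settings and 4 with the series matrix block, and the neighbouring genes 0 and 6, with 2 under quantile normalization and array weights. Paraspeckle proteins had 1 call with normexp or array weights, 2 with the methods' t-test and 9 with the series matrix block, and other long noncoding RNAs had 1, 1, 0 and 5 in the same order. Leaving out each array in turn gave 491 to 741 calls over all probes, 0 to 3 member probes, 0 to 2 member genes and 0 to 1 decay gene.

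Direction reversed only at probes that were never called, whose log2 fold changes under the reported setting lay between −0.23 and 0.18. MALAT1 A_24_P873659 became 0.00578 with quantile normalization, 0.0157 with detected probes, 0.0210 with normexp and 0.0585 with array weights. PVT1 A_19_P00321075 became 0.0115 with detected probes and 0.0658 with array weights, and PVT1 A_33_P3357748 became 0.0144, 0.0136 and 0.0510 with quantile normalization, detected probes and array weights. H19 A_19_P00323082 became −0.0160 with quantile normalization and −0.0670 with median scaling. Without 1 array, the ranges that crossed 0 were −0.0153 to 0.17 (MALAT1 A_19_P00324839), −0.15 to 0.21 (MALAT1 A_24_P873659), −0.0172 to 0.41 (PVT1 A_19_P00317180), −0.12 to 0.48 (PVT1 A_19_P00320749), −0.28 to 0.31 (PVT1 A_19_P00321075), −0.12 to 0.40 (PVT1 A_19_P00321076), −0.13 to 0.38 (PVT1 A_19_P00322939), −0.26 to 0.30 (PVT1 A_33_P3357748), −0.23 to 0.20 (H19 A_19_P00323082), −0.45 to 0.0809 (H19 A_24_P52697) and −0.000752 to 0.24 (DANCR A_24_P902052). The cause of these shifts was not tested. The stricter filter gave no value for MIR31HG and H19 A_24_P52697, which were not well above background on all 8 arrays.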
